A study of Mus musculus with 13 samples.

Results

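The genes for SR proteins and their Tra2 relatives, hnRNPs, splicing kinases and Luc7-like proteins were examined in cortical RNA of aged mice that differ in progranulin. Members were taken by a rule on gene symbols: Srsf, Tra2, Hnrnp, Clk, Srpk and Luc7l genes. This rule was chosen with earlier results of these data known. The rule found 43 genes among the 17562 listed in any of the 3 deposited comparison tables: 13 SR and Tra2 genes, 20 hnRNP genes, 7 kinase genes and 3 Luc7-like genes. All 43 stood in every table, but a matching gene left out of all 3 by a filter on low values could not be seen. The samples were cortex of 13 male mice aged 18 months. Of these, 4 were Grn-/-;GRNtg, which lack mouse progranulin and carry a human GRN transgene, 4 were Grn+/-, with 1 mouse copy, and 5 were wild type (Grn+/+). What drives the transgene, the strain background and any shared litter were not given in the sources used here. All groups share age, sex and tissue, and no group lacks progranulin without the transgene.

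Progranulin is secreted and also works inside lysosomes, and people who lose 1 copy of its gene can develop frontotemporal dementia. SR proteins bind exonic enhancers and recruit the spliceosome to nearby splice sites, and hnRNPs often act against them by blocking sites or looping out exons. Clk kinases, in the nucleus, and Srpk kinases, mainly in the cytoplasm, phosphorylate the serine and arginine repeats of SR proteins and so control where these proteins are and what they bind. Many SR and hnRNP genes limit their own output by splicing in a poison exon, which sends the transcript to nonsense-mediated decay. Clk1 and Clk4 transcripts are also known to be held in the nucleus with unspliced introns.

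The deposited tables give no value per mouse, so the spread between mice is seen here only as the authors' standard error (SE) of each log2 fold change. A gene was called where the authors' adjusted p of the DESeq2 Wald test over the whole table was under 0.05. The deposited fold changes may have been drawn towards 0 by a prior, so the percentages of wild type may understate the changes, and not equally for every gene. Mouse Grn checked the labels: in the authors' deposited tables it stood at 24.7% of wild type in Grn-/-;GRNtg (log2 -2.02 ± 0.081) and at 63.6% in Grn+/- (-0.65 ± 0.077). Markers of upper and deep cortical layers were present, with mean normalized counts from 533 for Rorb to 3798 for Lamp5 in the authors' deposited table, and the cerebellar granule cell gene Gabra6 was at 0.641. Striatal markers were present too, from 66.6 for Drd2 to 2614 for Ppp1r1b in the authors' deposited table. In bulk tissue, fewer cells of a type and less RNA per cell cannot be told apart.

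Against wild type, 10 of the 43 members were called in Grn-/-;GRNtg, 4 higher and 6 lower, where 4.87% of all 14961 genes were called. In Grn+/- 5 of 43 were called, all lower, where 6.8% of all 13482 genes were called. A single member, Hnrnpd, was called between the mutant groups, against 0.467% of all 17562 genes. Tra2a, Srsf6, Srsf7 and Clk1 were lower than wild type in each mutant group. Both mutant groups were set against the same wild-type mice, so these calls are not independent of each other. The members had a median log2 fold change of -0.01 in Grn-/-;GRNtg and -0.02 in Grn+/-, against 0.01 and 0.01 over all genes of those tables.

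How many members were called depended on the threshold. At adjusted p under 0.01, 3 members were called in Grn-/-;GRNtg and 3 in Grn+/-, where 1.7% and 2.65% of all genes were, and 0 between the mutant groups, where 0.199% were. With an absolute log2 fold change of at least 0.3 as well as adjusted p under 0.05 they were 1, Clk1, in Grn-/-;GRNtg and 2, Tra2a and Clk1, in Grn+/-, where 3.03% and 3.7% of all genes were called, and 0 between the mutant groups, where 0.393% were. Members are well expressed: among genes with a mean normalized count of at least 100, which all members reached, 5.68% were called in Grn-/-;GRNtg, 7.51% in Grn+/- and 0.343% between the mutant groups. At an unadjusted p under 0.05, 12 members in Grn-/-;GRNtg, 11 in Grn+/- and 3 between the mutant groups were counted, against 20.5%, 20.2% and 8.99% of all genes. The test statistics of all genes had a robust spread of 1.56 in Grn-/-;GRNtg, 1.49 in Grn+/- and 1.10 between the mutant groups, where a standard normal has 1. After division by that spread 0 members were called in any comparison, and of all genes 5, 3 and 29 in the same order of comparisons.

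**Figure D1:**
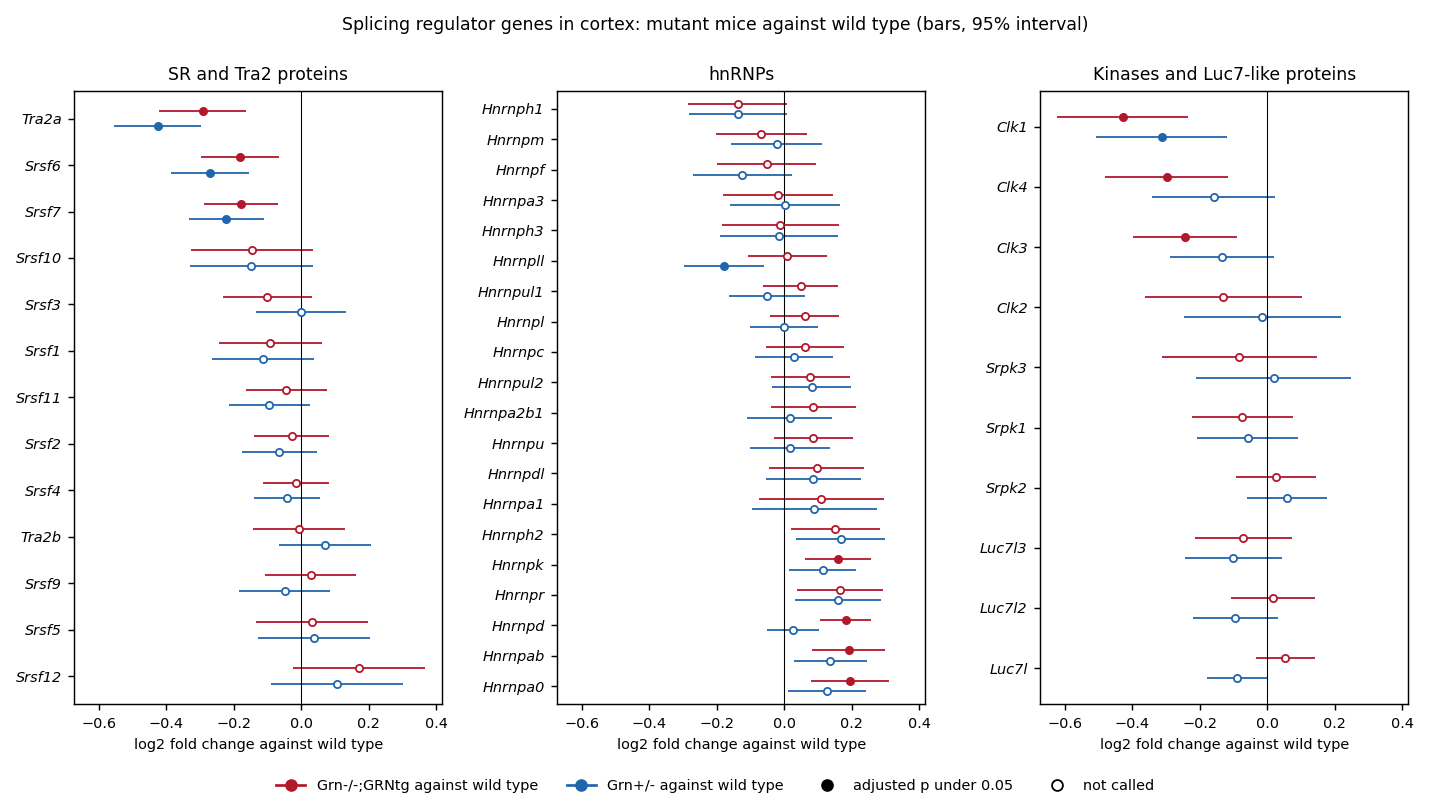
Log2 fold change of each of the 43 members in Grn-/-;GRNtg (red, upper point) and Grn+/- (blue, lower point) against wild type, with 95% intervals from the authors' SE. Filled points have adjusted p under 0.05. Filled on the left of 0 for both groups are Tra2a, Srsf6, Srsf7 and Clk1. Clk3 and Clk4 are filled on the left for the red points alone, 4 hnRNPs on the right for the red points alone, and Hnrnpll on the left for the blue point alone.

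The SR and Tra2 genes fell where they changed. In Grn-/-;GRNtg 3 of 13 were lower and 0 higher, where 3.05% of all genes were lower. In Grn+/- the same count held, 3 of 13 lower and 0 higher, where 4.51% of all genes were lower. Tra2a, a sequence-specific activator of exons, fell to 81.6% of wild type in Grn-/-;GRNtg (log2 -0.29 ± 0.066, SE, adjusted p = 0.0015) by the authors' deposited table. In Grn+/- it fell to 74.4% of wild type (-0.43 ± 0.066, adjusted p = 4.4e-07), the smallest adjusted p among the members in the authors' deposited table. The direct comparison of the mutant groups gave 0.13 ± 0.070 for Tra2a, higher in the transgenic mice by sign, with adjusted p = 0.57 and a 95% interval of -0.0035 to 0.27, in the authors' deposited table.

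Srsf6, which binds exonic enhancers and is a known regulator of alternative exons, fell to 88.1% of wild type in Grn-/-;GRNtg (-0.18 ± 0.059, adjusted p = 0.044) by the authors' deposited table. In Grn+/- it was at 83.0% of wild type (-0.27 ± 0.059, adjusted p = 0.00054) by the authors' deposited table. Srsf7, an SR protein with a zinc knuckle that also takes part in mRNA export, fell to 88.3% in Grn-/-;GRNtg (-0.18 ± 0.056, adjusted p = 0.038) by the authors' deposited table. It fell to 85.7% in Grn+/- (-0.22 ± 0.056, adjusted p = 0.0043) by the authors' deposited table. The direct test of the mutant groups called neither Srsf6 nor Srsf7, at 0.09 ± 0.062 (adjusted p = 0.75) and 0.04 ± 0.059 (adjusted p = 0.91) in the deposited table of the authors. In GRCm38, Tra2a lies on chromosome 6 (49243924 to 49264033, minus strand), Srsf6 on chromosome 2 (162931528 to 162937121, plus strand) and Srsf7 on chromosome 17 (80200080 to 80207307, minus strand).

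Tra2b, the close relative of Tra2a, was not called, with -0.01 ± 0.069 in Grn-/-;GRNtg and 0.07 ± 0.069 in Grn+/- in the authors' deposited tables. In Grn-/-;GRNtg the 95% interval ran from -0.14 to 0.13 for Tra2b and from -0.42 to -0.16 for Tra2a, so the intervals did not overlap. In Grn+/- they did not overlap either, at -0.06 to 0.21 for Tra2b and -0.56 to -0.30 for Tra2a. The difference between the genes was not tested, since values per mouse are needed for it.

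The other 10 SR and Tra2 genes were not called against wild type in either mutant group. In each comparison 8 of 10 had a 95% interval within 0.3 of 0. Of all genes not called, 7860 of 14233 in Grn-/-;GRNtg and 7494 of 12565 in Grn+/- had such an interval. No SE was above 0.138, which bounds the width of every interval, so these counts do not show that a gene is unchanged. Srsf1, a founding SR protein, was at -0.09 ± 0.078 in Grn-/-;GRNtg and -0.11 ± 0.078 in Grn+/- in the authors' deposited tables. The members of the class with the highest mean normalized counts, Srsf5 (4707), Srsf1 (2993) and Srsf11 (2600), lay between -0.11 and 0.04 in the authors' deposited tables. Srsf12, with a mean normalized count of 275, was the highest at 0.17 ± 0.100 in Grn-/-;GRNtg and 0.11 ± 0.100 in Grn+/- in the authors' deposited tables. Over all 13 genes the fold change was negative in 10 in each mutant group, where 48.7% of all genes were in Grn-/-;GRNtg and 47.6% in Grn+/-. The median was -0.04 in Grn-/-;GRNtg and -0.07 in Grn+/-.

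The 250 bases upstream of the RefSeq start of the 3 SR and Tra2 genes that fell are shown because these genes moved together in each mutant group. They were read 5′ to 3′ on the gene's strand from RefSeq (GRCm38.p6), for Tra2a at chr6:49264053-49264302, minus strand, for Srsf6 at chr2:162931258-162931507, plus strand and for Srsf7 at chr17:80207306-80207555, minus strand. Capitals mark, on either strand, the cAMP response element TGACGTCA, its half-site TGACG, the GC box GGGCGG, the CCAAT box CCAAT, the ETS core CCGGAAG and the TATA box TATAAA. The half-site lies within the full element, so each full element also holds half-sites.
Tra2a: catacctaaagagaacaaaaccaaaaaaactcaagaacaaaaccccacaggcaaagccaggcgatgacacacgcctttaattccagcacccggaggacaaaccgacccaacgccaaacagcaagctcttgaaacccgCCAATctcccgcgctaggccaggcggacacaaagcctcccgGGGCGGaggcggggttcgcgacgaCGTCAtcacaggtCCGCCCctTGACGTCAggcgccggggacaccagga
Srsf6: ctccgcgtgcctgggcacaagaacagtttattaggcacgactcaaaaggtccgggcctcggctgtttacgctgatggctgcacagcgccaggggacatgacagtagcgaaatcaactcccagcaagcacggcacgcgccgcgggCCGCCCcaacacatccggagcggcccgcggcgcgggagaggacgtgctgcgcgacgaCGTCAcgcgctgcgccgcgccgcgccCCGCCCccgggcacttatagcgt
Srsf7: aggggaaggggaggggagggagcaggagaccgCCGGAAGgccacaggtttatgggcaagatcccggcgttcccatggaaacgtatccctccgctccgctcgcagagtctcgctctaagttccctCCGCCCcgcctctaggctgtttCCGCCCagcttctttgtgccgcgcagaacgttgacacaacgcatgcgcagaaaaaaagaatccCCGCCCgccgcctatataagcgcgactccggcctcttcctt
Tra2a holds 1 full cAMP response element, 3 half-sites including those within it, 2 GC boxes and 1 CCAAT box. Srsf6 holds 1 half-site and 2 GC boxes, and Srsf7 holds 3 GC boxes and 1 ETS core. Such a match describes letters and not a bound site.

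The kinases that fell were of the Clk family. In Grn-/-;GRNtg 3 of 7 kinase genes were lower and 0 higher, where 3.05% of all genes were lower. In Grn+/- 1 of 7 was lower and 0 higher, where 4.51% of all genes were lower. At an unadjusted p under 0.05 these counts were the same, where 20.5% of all genes in Grn-/-;GRNtg and 20.2% in Grn+/- passed in either direction. Clk1, a nuclear dual-specificity kinase that phosphorylates SR proteins, fell to 74.3% of wild type in Grn-/-;GRNtg (-0.43 ± 0.099, adjusted p = 0.0021) by the authors' deposited table. In Grn+/- it was at 80.5% of wild type (-0.31 ± 0.099, adjusted p = 0.032) by the authors' deposited table. The direct comparison of the mutant groups, with the transgenic mice on top, gave -0.12 ± 0.103 (adjusted p = 0.83) by the authors' deposited table.

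Clk4, the nearest relative of Clk1, fell to 81.4% of wild type in Grn-/-;GRNtg (-0.30 ± 0.093, adjusted p = 0.037) by the authors' deposited table. In Grn+/- it had -0.16 ± 0.093 (adjusted p = 0.34) by the authors' deposited table and was not called. Clk3 fell to 84.4% of wild type in Grn-/-;GRNtg (-0.24 ± 0.079, adjusted p = 0.044) by the authors' deposited table. It had -0.14 ± 0.079 in Grn+/- (adjusted p = 0.33) by the authors' deposited table. That Clk3 and Clk4 were called in 1 mutant group does not show that the mutant groups differ. Their direct comparisons were -0.11 ± 0.082 for Clk3 (adjusted p = 0.77) and -0.14 ± 0.097 for Clk4 (adjusted p = 0.74) by the authors' deposited table.

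In GRCm38, Clk1 lies on chromosome 1 (58410189 to 58424066, minus strand), Clk3 on chromosome 9 (57750624 to 57765860, minus strand) and Clk4 on chromosome 11 (51261730 to 51281766, plus strand). Clk2 was the least precise Clk gene, with a mean normalized count of 124 and log2 fold changes of -0.13 ± 0.119 in Grn-/-;GRNtg and -0.01 ± 0.119 in Grn+/- in the authors' deposited tables. Its 95% interval in Grn-/-;GRNtg, -0.36 to 0.10, still holds the values of Clk3 and Clk4. All 4 Clk genes were negative in each of the 3 comparisons. The medians were -0.27 in Grn-/-;GRNtg against wild type, -0.15 in Grn+/- against wild type and -0.12 between the mutant groups. The 3 fold changes of a gene add up, so these signs are not independent, and 0 of the 4 were called between the mutant groups.

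Srpk genes were not called in any comparison. Srpk1, the widely expressed cytoplasmic SR kinase, was at -0.07 ± 0.076 in Grn-/-;GRNtg and -0.06 ± 0.076 in Grn+/- in the authors' deposited tables. Srpk2, the member of the family best known from brain, was at 0.03 ± 0.060 in Grn-/-;GRNtg and 0.06 ± 0.060 in Grn+/- in the authors' deposited tables. Its 95% interval in Grn-/-;GRNtg, -0.09 to 0.14, lay above that of Clk1, -0.62 to -0.23, though the difference was not tested. Srpk3, known from muscle and measured here at a mean normalized count of 182, had -0.08 ± 0.118 in Grn-/-;GRNtg and 0.02 ± 0.117 in Grn+/- in the authors' deposited tables.

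The promoter of Clk4 is shown beside those of the SR genes because, of the 39 members with a promoter in the RefSeq table, only Tra2a and Clk4 hold a full cAMP response element. It was read at chr11:51262864-51263113, plus strand, which lies within the span of the gene's longer annotated transcripts, with capitals as above.
Clk4: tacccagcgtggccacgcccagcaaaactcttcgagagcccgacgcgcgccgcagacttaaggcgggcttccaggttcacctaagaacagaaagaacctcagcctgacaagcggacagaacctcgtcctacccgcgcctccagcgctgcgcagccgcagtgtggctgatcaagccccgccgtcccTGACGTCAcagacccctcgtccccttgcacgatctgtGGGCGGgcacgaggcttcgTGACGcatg
It holds 1 full element, 3 half-sites including those within it and 1 GC box. Of all 32851 promoters of the same length in the table, 1.55% hold the full element, and 2 of the 39 members searched do. Both were called lower, while Srsf6, Srsf7 and Clk3, also called lower, lack it. Clk1, Hnrnpll, Hnrnpul2 and Luc7l had no entry and were not searched. The half-site was in 51.3% of member promoters and in 17.8% of all promoters. The GC box was in 76.9% of member promoters and in 32.7% of all, with a median GC content of 62.0% in members and 52.4% in all. The first promoter listed was taken for each member, while every entry was counted for all promoters. The promoters were not matched for GC content or expression, so the differences in motif shares are not particular evidence about splicing genes and were not tested.

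The hnRNP genes that were called in Grn-/-;GRNtg were higher: 4 of 20 rose and 0 fell, where 1.81% of all genes were higher. In Grn+/- 0 of 20 rose and 1 fell, where 2.29% of all genes were higher and 4.51% lower. The DESeq2 test at an unadjusted p under 0.05 gave 6 hnRNPs higher and 0 lower in Grn-/-;GRNtg, and 5 higher and 1 lower in Grn+/-. Of all genes at that threshold, 1518 of 14961 were higher and 1550 lower in Grn-/-;GRNtg. In Grn+/- 1226 of 13482 were higher and 1496 lower. Positive fold changes stood in 15 of 20 hnRNPs in Grn-/-;GRNtg and in 13 of 20 in Grn+/-, where 51.3% and 52.4% of all genes were positive. The median was 0.08 in Grn-/-;GRNtg and 0.02 in Grn+/-. The 20 genes ranged from -0.14 to 0.19 in Grn-/-;GRNtg and from -0.18 to 0.17 in Grn+/-.

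Hnrnpd, which encodes AUF1, a protein that binds AU-rich elements and controls mRNA decay, rose to 113% of wild type in Grn-/-;GRNtg (0.18 ± 0.039, adjusted p = 0.00073) by the authors' deposited table. In Grn+/- it had 0.03 ± 0.039 (adjusted p = 0.78) by the authors' deposited table. The mutant groups differed in the direct test, with Grn-/-;GRNtg at 111% of Grn+/- (0.16 ± 0.041, 95% interval 0.08 to 0.24, adjusted p = 0.034) by the authors' deposited table. It was the only member whose mutant groups were called different. Hnrnpdl, a related gene that lies close to it on chromosome 5, was not called, at 0.10 ± 0.071 in Grn-/-;GRNtg and 0.09 ± 0.071 in Grn+/- in the authors' deposited tables.

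The promoter of Hnrnpd is shown as that of the member that differed between the mutant groups. It was read at chr5:99978939-99979188, minus strand, with capitals as above.
Hnrnpd: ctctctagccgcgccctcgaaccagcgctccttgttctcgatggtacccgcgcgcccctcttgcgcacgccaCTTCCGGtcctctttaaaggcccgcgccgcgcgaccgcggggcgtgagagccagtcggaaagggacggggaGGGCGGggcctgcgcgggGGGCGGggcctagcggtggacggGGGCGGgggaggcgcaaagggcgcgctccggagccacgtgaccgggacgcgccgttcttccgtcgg
It holds 3 GC boxes and 1 ETS core and none of the other motifs searched.

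The A/B group of hnRNPs, which package nascent transcripts and repress splice sites, held both called and uncalled members. Hnrnpa0 rose to 114% of wild type in Grn-/-;GRNtg (0.19 ± 0.059, adjusted p = 0.031) by the authors' deposited table. Hnrnpab, known for transport of mRNA in neurons and glia, rose to 114% (0.19 ± 0.056, adjusted p = 0.022) by the authors' deposited table. In Grn+/- Hnrnpa0 stood at 0.13 ± 0.059 (adjusted p = 0.19) and Hnrnpab at 0.14 ± 0.056 (adjusted p = 0.12) by the authors' deposited table. Neither was called between the mutant groups, with adjusted p = 0.84 for Hnrnpa0 and 0.87 for Hnrnpab. Hnrnpa2b1, the most highly counted of the group at 5851, was at 0.09 ± 0.065 in Grn-/-;GRNtg and 0.02 ± 0.065 in Grn+/- in the authors' deposited tables.

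In GRCm38, Hnrnpd lies on chromosome 5 (99955935 to 99978938), Hnrnpab on chromosome 11 (51600100 to 51606847), and Hnrnpa0 (58125879 to 58128556) and Hnrnpk (58391142 to 58403343) on chromosome 13, all on the minus strand.

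Hnrnpk, a KH-domain protein that binds C-rich sequences, rose to 112% of wild type in Grn-/-;GRNtg (0.16 ± 0.051, adjusted p = 0.040) by the authors' deposited table. It had 0.11 ± 0.051 in Grn+/- (adjusted p = 0.16) by the authors' deposited table. Hnrnpr and Hnrnph2 had values of like size in each group without a call. Hnrnpr was at 0.16 ± 0.065 in each mutant group, and Hnrnph2 at 0.15 ± 0.067 in Grn-/-;GRNtg and 0.17 ± 0.067 in Grn+/-, in the authors' deposited tables. Hnrnph1, close kin of Hnrnph2, was negative, at -0.14 ± 0.074 in each mutant group in the authors' deposited tables, and was not called.

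Hnrnpll, which is known to control alternative splicing of the CD45 gene in lymphocytes, was the 1 hnRNP that fell. It had 0.01 ± 0.060 in Grn-/-;GRNtg (adjusted p = 0.95) and fell to 88.4% of wild type in Grn+/- (-0.18 ± 0.060, adjusted p = 0.047) by the authors' deposited tables. The mutant groups were not called different for it, at 0.19 ± 0.063 by the authors' deposited table (unadjusted p = 0.0029, adjusted p = 0.19). Hnrnpll (chromosome 17, 80029487 to 80062334, minus strand, GRCm38) and Srsf7 (80200080 to 80207307, same strand) lie near each other. The most highly counted hnRNPs, Hnrnpu (7646), Hnrnpa2b1 (5851) and Hnrnpul2 (5695), had fold changes between 0.02 and 0.09 against wild type in the authors' deposited tables. Every hnRNP not called in a comparison with wild type had a 95% interval within 0.3 of 0 there. The same held for 7860 of the 14233 genes not called in Grn-/-;GRNtg and 7494 of the 12565 in Grn+/-.

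Luc7-like proteins, which associate with the U1 particle and help it choose 5′ splice sites, were not called in any comparison. By the DESeq2 test at an unadjusted p under 0.05, 20.5% of all genes passed in Grn-/-;GRNtg, 20.2% in Grn+/- and 8.99% between the mutant groups. Of the Luc7-like genes 0 of 3 passed in Grn-/-;GRNtg, 1 was lower in Grn+/- and 1 was higher between the mutant groups. Both were Luc7l, at 0.05 ± 0.045 in Grn-/-;GRNtg and -0.09 ± 0.045 in Grn+/- against wild type, and 0.14 ± 0.048 between the mutant groups (adjusted p = 0.18), in the authors' deposited tables. Luc7l2 was at 0.02 ± 0.064 in Grn-/-;GRNtg and -0.09 ± 0.064 in Grn+/-, and Luc7l3 at -0.07 ± 0.073 in Grn-/-;GRNtg and -0.10 ± 0.073 in Grn+/-, in the authors' deposited tables. All 3 had 95% intervals within 0.3 of 0 against wild type, as did 7860 of 14233 uncalled genes in Grn-/-;GRNtg and 7494 of 12565 in Grn+/-.

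**Figure D2:**
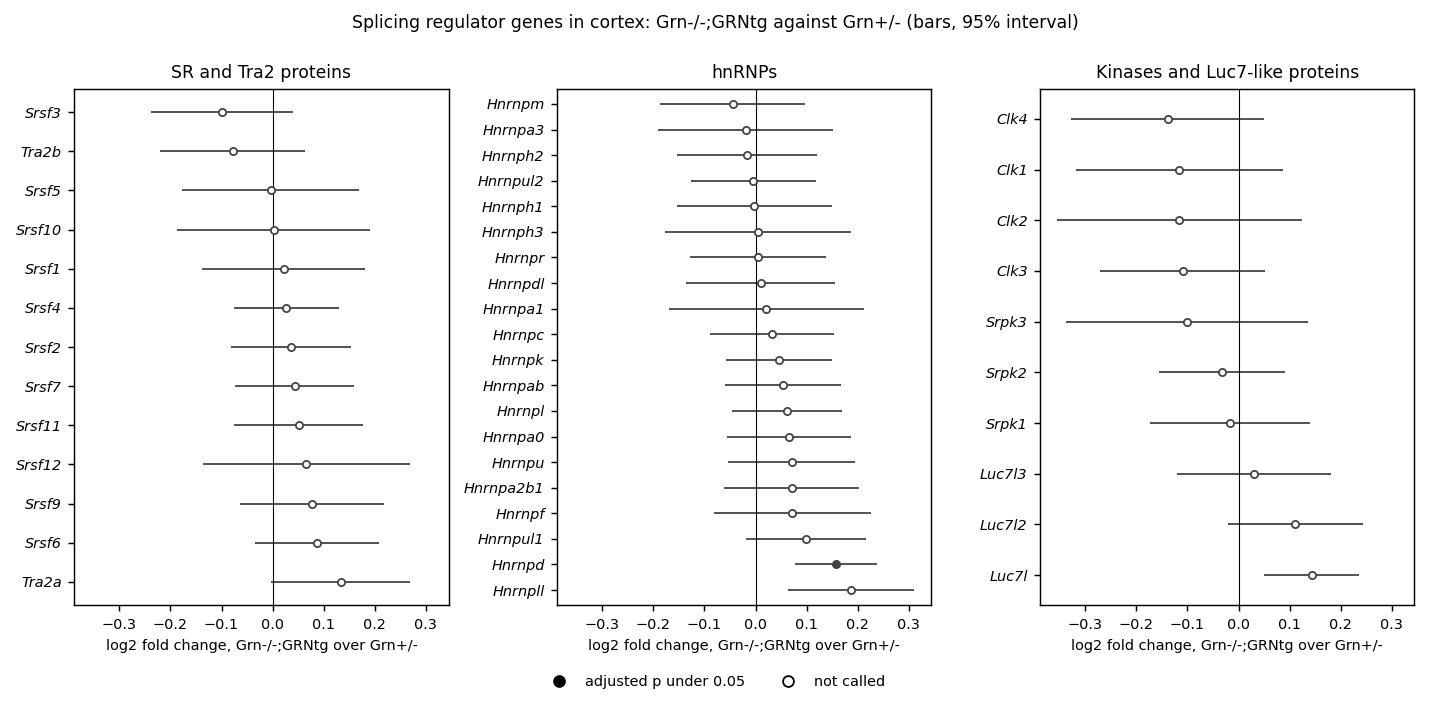
Log2 fold change of each member in Grn-/-;GRNtg over Grn+/-, with 95% intervals from the authors' SE. The filled point has adjusted p under 0.05. Hnrnpd is the filled point at 0.16, all 7 kinase genes lie left of 0 and all 3 Luc7-like genes lie right of 0, with intervals that mostly hold 0.

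Between the mutant groups few members stood apart. Of the 42 members not called, 37 had a 95% interval within 0.3 of 0, as did 11454 of the 17480 genes not called. SR and Tra2 genes had 0 of 13 called, 0 at an unadjusted p under 0.05 and a median of 0.04. Kinase genes had 0 of 7 called, 0 at an unadjusted p under 0.05 and a median of -0.11. The hnRNPs had 1 of 20 called, 2 higher at an unadjusted p under 0.05 and a median of 0.04, and all genes had a median of the same sign, under 0.01. Of all genes 0.467% were called and 8.99% had an unadjusted p under 0.05 in either direction. The hnRNP count at that unadjusted threshold lies near the latter share. Positive fold changes stood in 10 of 13 SR and Tra2 genes, 15 of 20 hnRNPs and 3 of 3 Luc7-like genes, where 50.8% of all genes were positive. Negative ones stood in 7 of 7 kinase genes, where 49.2% were.

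The wider splicing machinery was counted from lists of genes, chosen with earlier results of these data known. SR-related cofactors, large proteins with the same repeats, had 2 of 26 lower in Grn-/-;GRNtg and 5 of 26 lower in Grn+/-, with 0 higher in each, where 3.05% and 4.51% of all genes were lower. Son, a scaffold of nuclear speckles, fell by 0.32 (SE 0.088) in Grn-/-;GRNtg and by 0.40 (SE 0.088) in Grn+/- in the authors' deposited tables. Nktr, a cyclophilin with such repeats, fell by 0.29 (SE 0.071) in Grn-/-;GRNtg and by 0.39 (SE 0.071) in Grn+/- in the authors' deposited tables. In Grn+/- the speckle protein gene Srrm2 (-0.24 ± 0.070) and Scaf11 (-0.21 ± 0.065) fell as well in the authors' deposited table. The median of the list was -0.04 in Grn-/-;GRNtg and -0.12 in Grn+/-.

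Spliceosome core genes had 2 of 53 higher and 0 lower in Grn-/-;GRNtg, and 3 of 52 higher and 1 lower in Grn+/-. Of all genes 1.81% were higher in Grn-/-;GRNtg and 2.29% in Grn+/-, so the first count lies near that share. Sf3b2, a subunit of the U2 particle, rose by 0.16 ± 0.042 in Grn-/-;GRNtg and 0.15 ± 0.042 in Grn+/- in the authors' deposited tables. Sf3b1, of the same complex, fell in Grn+/- by 0.24 (SE 0.065) by the authors' deposited table. Eftud2, a GTPase of the tri-snRNP and a near neighbour of Grn on chromosome 11, rose by 0.20 ± 0.053 in Grn-/-;GRNtg in the authors' deposited table. Snrpd3, of the Sm ring, rose by 0.30 ± 0.089 and Prpf31, a tri-snRNP protein, by 0.28 ± 0.084 in Grn+/- in the authors' deposited table. Positive fold changes stood in 43 of 53 core genes in Grn-/-;GRNtg and in 40 of 52 in Grn+/-, with medians of 0.08 and 0.06, where 51.3% and 52.4% of all genes were positive.

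Proteins of hnRNP type under other symbols had 2 of 11 higher in Grn-/-;GRNtg and 1 of 11 higher in Grn+/-, with 0 lower, where 1.81% and 2.29% of all genes were higher. Cirbp, a cold-inducible RNA-binding protein, rose by 0.40 ± 0.095 in Grn-/-;GRNtg and 0.36 ± 0.095 in Grn+/- in the authors' deposited tables. Pcbp3, a KH-domain relative of Hnrnpk, rose by 0.29 ± 0.089 in Grn-/-;GRNtg in the authors' deposited table. For the next lists, the share of all genes that was lower was 3.05% in Grn-/-;GRNtg and 4.51% in Grn+/-. Neuronal and tissue regulators had 1 of 30 lower in Grn-/-;GRNtg, Ptbp3 at -0.31 ± 0.088, and 5 of 30 lower in Grn+/-, with Fubp1 at -0.31 ± 0.064, Sfpq at -0.34 ± 0.079, Tia1 at -0.26 ± 0.070 and Tial1 at -0.24 ± 0.074 in the authors' deposited tables. The single regulator called in the transgenic mice lies near that share. Decay and exon junction genes had 1 of 17 lower in each: Smg1, the kinase that activates nonsense-mediated decay, at -0.41 ± 0.092 in Grn-/-;GRNtg and -0.51 ± 0.092 in Grn+/- in the authors' deposited tables. Other kinases and phosphatases acting on splicing factors had 2 of 16 lower in Grn-/-;GRNtg and 5 of 16 lower in Grn+/-, with 0 higher. Among them the nuclear kinase gene Hipk2 was at -0.61 ± 0.135 in Grn-/-;GRNtg and -0.51 ± 0.135 in Grn+/-, and Prpf4b, a spliceosomal kinase, at -0.29 ± 0.071 in Grn+/-, in the authors' deposited tables. In Grn+/- Cdk13 (-0.27 ± 0.071) and Hipk3 (-0.36 ± 0.095) fell as well by the authors' deposited table. The authors' DESeq2 test of Grn-/-;GRNtg against Grn+/- called 0 genes of these 6 lists. At an unadjusted p under 0.05, 8.99% of all genes passed in that test, and 0 of 17 decay and exon junction genes. Neuronal and tissue regulators had 6 of 31 there, and proteins of hnRNP type under other symbols had 2 higher and 1 lower of 11.

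**Figure D3:**
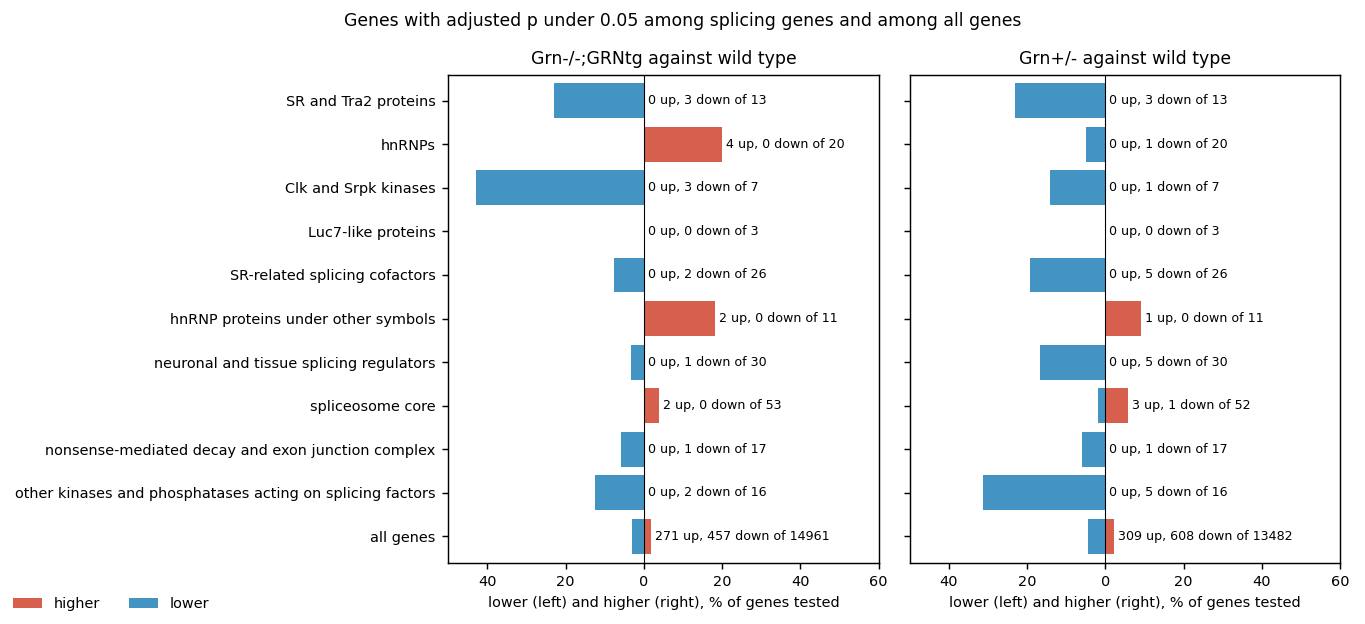
Share of the genes tested that were lower (blue, left) and higher (red, right) at adjusted p under 0.05 in Grn-/-;GRNtg (left panel) and Grn+/- (right panel) against wild type, for the member classes, the other splicing lists and all genes. Calls among SR and Tra2 genes and kinases lie on the lower side in each panel, and the 4 hnRNP calls in Grn-/-;GRNtg lie on the higher side.

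Signs of RNA quality and cell mix were counted beside the members. Of all genes 48.7% were negative in Grn-/-;GRNtg and 47.6% in Grn+/-. In Grn-/-;GRNtg 3.05% of all genes were called lower and 1.81% higher, and in Grn+/- 4.51% lower and 2.29% higher. Nuclear-retained noncoding RNAs were negative in 9 of 9 in Grn-/-;GRNtg, where 1 was called, and in 8 of 9 in Grn+/-, where 4 were called lower. Malat1 was at -0.62 ± 0.109 in Grn-/-;GRNtg and -0.43 ± 0.109 in Grn+/- in the authors' deposited tables. Reads assigned to no gene were at 88.6% of wild type in Grn-/-;GRNtg (DESeq2 adjusted p = 0.024) and 86.1% in Grn+/- (adjusted p = 0.0019) in the authors' deposited tables. Their part in the lower values of Tra2a, Srsf6, Srsf7 and the Clk genes was not tested. Of 8 neuron markers, 6 were positive in Grn-/-;GRNtg and 8 in Grn+/-, where Snap25 was called. Oligodendrocyte markers were negative in 8 of 8 in each, with 0 called. Endothelial markers were negative in 7 of 8 in each, with 3 called in Grn-/-;GRNtg and 0 in Grn+/-. Astrocyte markers were negative in 6 of 8 in each, with 2 called, both in Grn+/-. Microglia markers were negative in 7 of 8 in each with 0 called, and striatal markers were positive in 8 of 8 in Grn-/-;GRNtg and in 2 of 8 in Grn+/-, with 0 called. Cortex markers were negative in 7 of 8 in Grn-/-;GRNtg, with 0 called, and in 4 of 8 in Grn+/-, with Rorb called higher. Between the mutant groups, where Hnrnpd was called, 50.8% of all genes were positive. There, striatal markers were positive in 8 of 8 with a median of 0.20, and cortex markers were negative in 7 of 8. Their part in the members' values was not tested.

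Levels could be set against each other only per length of exon. That length merges the exons of all annotated transcripts, those with a retained intron included, so the order of genes depends on how many transcripts are annotated. Clk1 had 8132 merged bases against 1796 in its longest protein-coding transcript, and Hnrnpa0 had 2678 in both. Per kilobase of annotated exon, the mean normalized count over the 13 mice was highest for Hnrnpa0 (1188) and Srsf5 (1180) and lowest for Clk2 (23.5). Tra2a stood at 174 per kilobase and Tra2b at 78.0. Within the Clk family the order was Clk1 (206), Clk3 (180), Clk4 (160) and Clk2 (23.5), and Srpk2 (253) led the Srpk genes. No error can be given for these means, since the tables hold a single mean for all mice. Hnrnpa1 (102) and Hnrnpa3 (135), close kin of Hnrnpa2b1 (889), have near-identical copies elsewhere: 9 other genes for Hnrnpa1 and 25 for Hnrnpa3. Copies were taken as other annotated genes that match at 95% identity or more over at least 500 bases, and reads of such genes can be split or lost. In all, 12 members had a copy of this kind, and of the 11 called members 1 did, Hnrnpk, with 2.

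**Figure D4:**
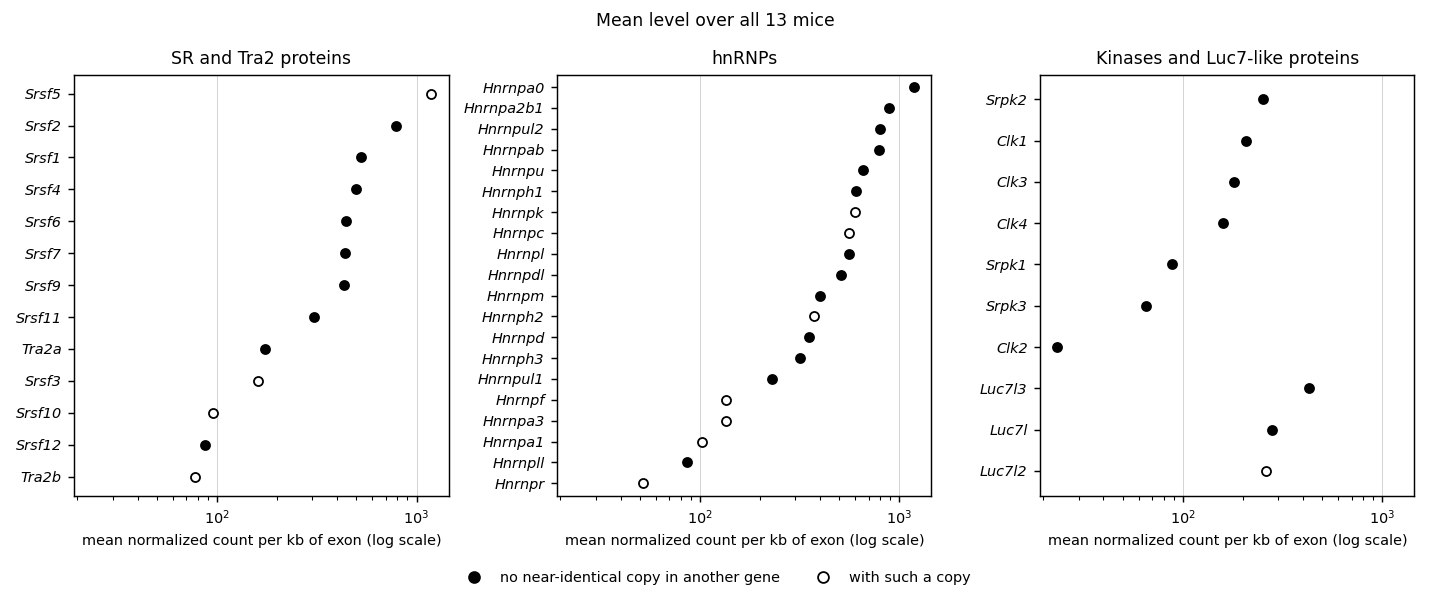
Mean normalized count per kilobase of annotated exon, merged over all transcripts of a gene, over all 13 mice for each member, on a log axis. Open points have a near-identical copy in another annotated gene. Levels run from 23.5 for Clk2 to 1188 for Hnrnpa0, and Hnrnpa1, Hnrnpa3 and Tra2b are open points at the low end of their classes.

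Some called members overlap exons of other genes, and the strand setting of the counting was not given in the sources used here. What such overlap adds to their values was not tested. Exons of Hnrnpab overlap the opposite-strand gene Phykpl over 29.1% of their length, those of Clk3 overlap Edc3 over 15.2%, and those of Hnrnpk overlap Rmi1 over 5.1%. None of these partners was called: in Grn-/-;GRNtg Phykpl was at 0.09 ± 0.138, Edc3 at 0.10 ± 0.070 and Rmi1 at 0.13 ± 0.107 in the authors' deposited table. Tra2a, Srsf6, Srsf7, Clk1, Hnrnpa0 and Hnrnpll overlap no other annotated exon, and Clk4 and Hnrnpd overlap a noncoding gene over 1.02% and 5.24%.

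Many members share annotated transcript types, which the rule did not use. An annotated transcript subject to nonsense-mediated decay was present for 30 of the 43 members (69.8%), against 28.1% of the 12615 other protein-coding genes in all 3 tables. A transcript with a retained intron was annotated for 34 of 43 (79.1%), against 58.8% of the others. Among SR and Tra2 genes 11 of 13 had a decay transcript, among hnRNPs 10 of 20 and among kinases 6 of 7. All 7 members called lower in any table, Tra2a, Srsf6, Srsf7, Clk1, Clk3, Clk4 and Hnrnpll, had both kinds annotated. Of the 4 members called higher, 2 had a decay transcript and 2 a retained intron. Of the 32 members never called, 21 had a decay transcript and 25 a retained intron. These are counts of the annotation, which holds a median of 9 transcripts for members and 5 for the other genes. The tables count whole genes, so productive transcripts cannot be told apart from those with a poison exon or a retained intron.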

How the data were processed

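Total cortical RNA went into strand-specific libraries, per the labels' protocols. The submitters' processing notes name DESeq2 1.34.0, R 4.1.2 and mm10, and the aligner, counter, annotation and strand setting were not given in the sources used here. Each comparison table gives a mean normalized count, a signal averaged over all libraries by the authors. The log2 fold change and its SE, deposited by the authors, and their Wald statistic, a score equal to the log2 fold change over the SE, follow it. The p-value and adjusted p-value are those of the authors, and recomputing the Benjamini-Hochberg step gave their adjusted values within 9e-15. The fold changes of the 3 tables add up within 2.3e-16, so the tables come from a single fit. The highest SE was 0.138 in each table, even with mean normalized counts down to 0.523 between the mutant groups. A prior that draws fold changes towards 0 would give so low a limit, but its use was not stated. Rows for reads in no gene and for ambiguous reads, 17.0% and 0.606% of the summed mean normalized counts, were left out of counts of genes.

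Depth per mouse is unknown. Over all genes the mean normalized counts came to 18113972. Intervals are 95% normal intervals from the deposited SE. The labels number the mice but name no litter, batch or dissection day. Each p-value weighs a fold change against its SE in the authors' fit, and values per mouse were not at hand to check that SE. Members and gene lists were chosen with earlier results of these data known. Members called in any table, the Tra2, Clk and Srpk genes and the 3 most highly counted of the SR and hnRNP classes were to be named, with up to 4 called genes per further list. Srsf12, Hnrnpdl, Hnrnph1, Hnrnph2, Hnrnpr, Luc7l and some genes named for their copies, overlaps or position were chosen after their values were seen. Alternatives were a threshold of 0.01, a minimum absolute log2 fold change of 0.3, statistics divided by their robust spread, recentred fold changes, adjustment over the 13482 genes in all tables and a minimum mean normalized count of 100. The calling steps were tested on simulated data. Positions, exon lengths and transcript types are from GENCODE M21 (GRCm38, the assembly that mm10 names), where all 43 members matched. Promoters are from RefSeq (GRCm38.p6), where 39 members matched. Copies were searched with blastn 2.17.0. Python 3.11.15, numpy 2.4.6, pandas 2.3.3, scipy 1.17.1 and matplotlib 3.10.9 were used.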

Additional observations from a re-analysis of the deposited data

Results flagged for a closer look

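Hnrnpd was the 1 member whose effect differed between the mutant groups by a test of the difference itself. Its log2 fold change in Grn-/-;GRNtg over Grn+/- was 0.16 ± 0.041 (SE) in the authors' deposited table, with adjusted p = 0.034. Against wild type it stood at 0.18 ± 0.039 in Grn-/-;GRNtg and at 0.03 ± 0.039 in Grn+/- in the authors' deposited tables. Its adjusted p between the mutant groups ran from 0.034 to 0.14 over the 6 alternatives, and it was not called under 3 of them.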

How the results depend on the processing

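Recentring fold changes on the median of all genes, adjusting over the genes in all 3 tables and requiring a mean normalized count of 100 left the counts at 10, 5 and 1 called members in Grn-/-;GRNtg and Grn+/-, each set against wild type, and in the comparison of the mutant groups, and these were the same genes. At adjusted p under 0.01 the counts were 3, 3 and 0: Tra2a, Hnrnpd and Clk1 in Grn-/-;GRNtg, and Tra2a, Srsf6 and Srsf7 in Grn+/-. With an absolute log2 fold change of at least 0.3 they were 1, 2 and 0: Clk1 in Grn-/-;GRNtg, and Tra2a and Clk1 in Grn+/-. Dividing each statistic by the robust spread of all, 1.56, 1.49 and 1.10 in these comparisons, left 0, 0 and 0, where 0.0334%, 0.0223% and 0.165% of all genes were called. Tra2a in Grn+/- then had adjusted p = 0.05, at the threshold, and its adjusted p ran from 1.9e-07 to 0.05 over the alternatives. Direction was not put to a test, since 5 of the 6 alternatives leave fold changes as they are and recentring moved all genes of a table alike. Leaving out single mice was not run, since the tables hold no values per mouse. No paired analysis was possible because the columns carry no mouse and no replicate number. Clk2, Srpk3 and Srsf12 had the lowest mean normalized counts of the members. Depth per mouse is unknown, so what it limits was not tested.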
